A study of Homo sapiens with 6 samples.

Results

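The H3K27ac peak lists of the libraries labelled Kasumi-NC and Kasumi-shANP32B were compared over chromosomes 1 to 22 and X, where they held 22724 and 23833 peaks. Together these are 46557 of the 93160 peaks that the 4 peak lists of the study had on those chromosomes. The members were taken by sample title and chromosome alone. H3K27ac was profiled by CUT&Tag, where a transposase tethered to an antibody cuts and tags DNA next to the modified histone. The other libraries with a peak list came from MV4-11, a second acute myeloid leukemia (AML) line, with the same pair of conditions, and the 2 IgG libraries of the series are not analysed here. The Kasumi-NC library is labelled untreated, while the study's methods describe stable cells that carried a control short hairpin RNA, made with lentivirus and kept under puromycin. The Kasumi-shANP32B library is labelled ANP32B knockdown. The study used 3 hairpins against ANP32B, and which of them this library carried was not stated in the sources used here. The 2 libraries are called NC and sh-ANP32B here. Each list was called on merged replicates, so there was 1 library a side, no spread between replicates and no test of the knockdown. Every difference below describes these 2 libraries, and intervals cover counting error within the lists only.

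Acetylation of histone H3 at lysine 27 marks active promoters and enhancers. It is written by the acetyltransferases EP300 and CREBBP and removed by histone deacetylases. At an active gene the mark lies on the nucleosomes to both sides of the transcription start, while the start itself is often poor in nucleosomes. ANP32B is an acidic nuclear protein and histone chaperone of the ANP32 family, which binds histones and has been linked to their acetylation. Peaks report the extent of the mark along the DNA, since the lists give positions and widths and no height, enrichment or read number.

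The label was checked against marker genes. A promoter peak is a peak that comes within 2500 bases of a protein-coding gene's canonical start, and the value of a gene is the number of bases of this window of 5001 bases that lie under peaks. Kasumi-1 carries the t(8;21) fusion RUNX1::RUNX1T1. Of 7 genes known for t(8;21) leukemia, both libraries had a promoter peak at 2, CD33 and CD34, and none at KIT, POU4F1, RUNX1T1, MPO or TRH. CD33, a myeloid surface antigen, had 1464 bases in NC and 1411 in sh-ANP32B, and CD34, a progenitor antigen, 180 and 132. Of 11 genes known for KMT2A-rearranged monocytic leukemia such as MV4-11, NC had a promoter peak at 7 and sh-ANP32B at 6. The homeobox genes HOXA7 and HOXA10 filled the whole window in both libraries, HOXA9 had 4335 bases in NC and 4707 in sh-ANP32B, and its cofactor MEIS1 had 3103 and 3264. The receptor kinase gene FLT3 had 2028 and 2008 bases. PBX3, another HOXA9 cofactor, had 2616 and 1570 bases, and the transcription factor gene MEF2C had 482 and 0. LYZ, CD14, CSF1R and LAMP5 had no promoter peak in either library. The libraries labelled MV4 had a promoter peak at none of the 7 t(8;21) genes and at 5 (NC) and 6 (sh-ANP32B) of the 11 others. There HOXA7 had 0 and 418 bases, HOXA9 769 and 659, HOXA10 2648 and 1638, MEIS1 3337 and 3123, MEF2C 0 and 322, FLT3 299 and 0, and PBX3 0 in both. LYZ, the lysozyme gene of monocytes, had 683 and 324 bases in the MV4-labelled libraries and none in the Kasumi-labelled ones, and CD33 and CD34 had bases only in the latter. These 3 genes went with the labels, though CD34 had only 180 and 132 bases, from a peak that reached the edge of the window. The HOXA genes, FLT3, PBX3 and the absence of peaks at 5 t(8;21) genes went against the label Kasumi. The libraries are therefore named only by their labels. Of 7 genes of blood cells in general, 6 had a promoter peak in both.

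**Figure D1:**
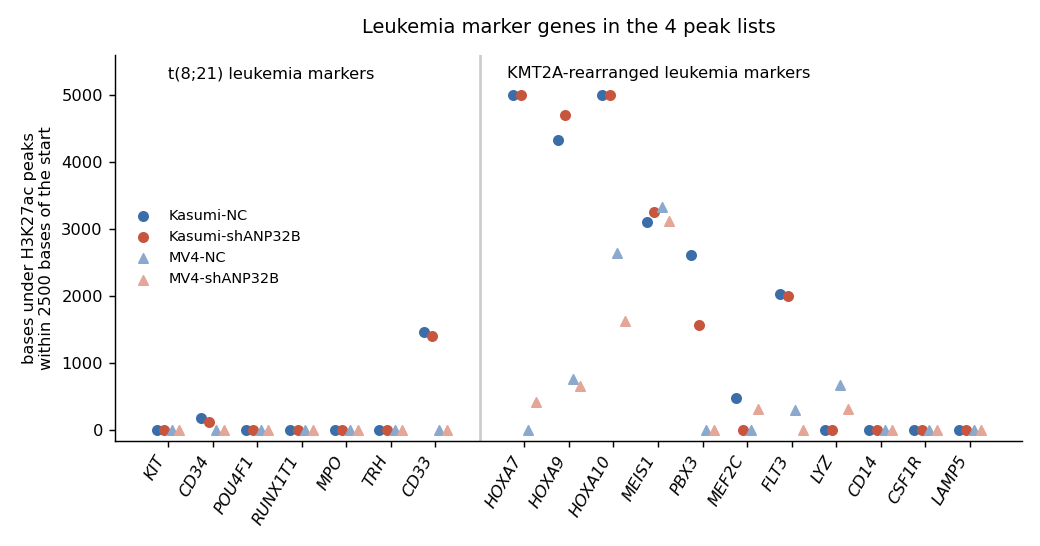
Bases under H3K27ac peaks (vertical axis) within 2500 bases of the start of 7 t(8;21) and 11 KMT2A-rearranged leukemia marker genes, 1 point per library, circles for the libraries labelled Kasumi and triangles for those labelled MV4. The libraries labelled Kasumi reach 5001 bases at HOXA7 and HOXA10 and 0 at KIT, POU4F1, RUNX1T1, MPO and TRH.

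ANP32B, the targeted gene, is on chromosome 9 from 97983341 to 98015943 (plus strand, hg38). A single peak covered its start in both libraries, 3961 bases wide in NC and 3926 in sh-ANP32B. The promoter mark does not measure the knockdown, which acts on the mRNA. The libraries differed little in size: the covered length was 32.7 Mb in NC and 33.6 Mb in sh-ANP32B, and the median peak width 1045 and 980 bases. The caller's smallest width was 357 bases in NC and 354 in sh-ANP32B. The read depth of both is unknown.

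The sequences that lost and gained the mark differed in base composition, and 7 windows are printed to show it. Each is 300 bases from the centre of a peak or gap, from hg38, plus strand, 5′ to 3′, with each CG dinucleotide in capitals. The first 3 peaks were in NC only, the next pair lost the mark at the start of a gene that kept a peak nearby, and the last 2 peaks were in sh-ANP32B only.
DNMT3A promoter peak, NC only, chr2:25341940-25342239: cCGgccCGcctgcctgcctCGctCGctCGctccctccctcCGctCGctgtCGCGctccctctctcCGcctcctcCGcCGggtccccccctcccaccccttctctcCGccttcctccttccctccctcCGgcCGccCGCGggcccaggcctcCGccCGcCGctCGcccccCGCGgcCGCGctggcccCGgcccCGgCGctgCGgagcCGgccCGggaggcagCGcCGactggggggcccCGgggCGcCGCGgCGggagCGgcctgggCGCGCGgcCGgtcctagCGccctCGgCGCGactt
PHF13 promoter peak, NC only, chr1:6614041-6614340: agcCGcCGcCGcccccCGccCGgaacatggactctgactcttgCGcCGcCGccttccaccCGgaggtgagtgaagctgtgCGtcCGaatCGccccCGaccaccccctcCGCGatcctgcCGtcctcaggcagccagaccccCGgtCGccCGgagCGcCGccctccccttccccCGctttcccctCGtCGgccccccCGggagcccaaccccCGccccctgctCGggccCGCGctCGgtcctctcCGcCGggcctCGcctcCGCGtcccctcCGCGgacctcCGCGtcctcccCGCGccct
IPO5 intron 3 peak, NC only, chr13:97976352-97976651: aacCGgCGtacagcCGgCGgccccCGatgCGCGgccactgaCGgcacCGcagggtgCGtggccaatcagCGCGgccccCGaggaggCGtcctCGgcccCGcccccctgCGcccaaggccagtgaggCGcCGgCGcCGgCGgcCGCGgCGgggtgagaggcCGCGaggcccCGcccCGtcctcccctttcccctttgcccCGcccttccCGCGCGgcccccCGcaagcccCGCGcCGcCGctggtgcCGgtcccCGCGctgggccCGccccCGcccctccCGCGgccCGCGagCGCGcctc
E2F1 gap, under the NC peak and between 2 sh-ANP32B peaks, chr20:33686080-33686379: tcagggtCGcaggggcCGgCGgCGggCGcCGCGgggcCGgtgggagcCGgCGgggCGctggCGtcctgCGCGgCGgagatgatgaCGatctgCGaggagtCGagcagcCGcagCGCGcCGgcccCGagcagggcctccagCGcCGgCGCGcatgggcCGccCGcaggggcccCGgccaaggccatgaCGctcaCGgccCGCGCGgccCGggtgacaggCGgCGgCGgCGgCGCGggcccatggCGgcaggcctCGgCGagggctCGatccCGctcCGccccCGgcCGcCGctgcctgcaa
CREBBP promoter peak, NC, chr16:3880483-3880782: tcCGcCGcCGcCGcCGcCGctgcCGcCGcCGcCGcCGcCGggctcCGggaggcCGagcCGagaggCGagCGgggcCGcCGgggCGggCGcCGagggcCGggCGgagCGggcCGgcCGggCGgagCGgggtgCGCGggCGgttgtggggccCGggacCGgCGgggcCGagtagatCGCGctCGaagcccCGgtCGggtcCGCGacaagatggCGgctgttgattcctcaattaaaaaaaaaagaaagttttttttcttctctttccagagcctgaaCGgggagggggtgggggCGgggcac
GPR146 promoter peak, sh-ANP32B only, chr7:1043963-1044262: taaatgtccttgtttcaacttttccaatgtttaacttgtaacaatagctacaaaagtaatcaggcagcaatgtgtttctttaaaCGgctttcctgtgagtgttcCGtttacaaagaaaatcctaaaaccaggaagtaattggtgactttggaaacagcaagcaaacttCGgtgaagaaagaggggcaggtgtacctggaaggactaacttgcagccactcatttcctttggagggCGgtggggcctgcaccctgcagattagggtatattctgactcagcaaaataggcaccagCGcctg
AK5 intron 7 peak, sh-ANP32B only, chr1:77413144-77413443: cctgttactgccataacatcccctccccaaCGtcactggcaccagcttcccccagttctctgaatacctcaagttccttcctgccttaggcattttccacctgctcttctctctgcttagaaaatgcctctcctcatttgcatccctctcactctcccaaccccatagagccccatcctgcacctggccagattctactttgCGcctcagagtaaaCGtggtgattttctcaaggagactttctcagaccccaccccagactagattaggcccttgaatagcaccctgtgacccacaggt
The windows from DNA that was under a peak in NC and not in sh-ANP32B had 41 to 51 CG dinucleotides (DNMT3A 47, PHF13 41, IPO5 49, E2F1 51, CREBBP 46) and a GC content of 74.3% to 83.3%. The windows of peaks found in sh-ANP32B only had 5 (GPR146) and 3 (AK5), at 44% and 52.3% GC. These windows are examples, and the counts over all peaks follow. Over all peaks the contrast was much smaller. The median GC content was 57.1% in peaks found in NC only and 51.6% in peaks found in sh-ANP32B only. In NC peaks that overlapped a sh-ANP32B peak it was 55.3%.

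At gene starts, fewer positions lay under a peak in sh-ANP32B than in NC, and the difference was centred on the start itself. Of 19970 protein-coding starts, 8270 (41.4%) lay under an NC peak and 7047 (35.3%) under a sh-ANP32B peak. At 100 bases downstream the shares were 43.2% and 37.0%, at 500 bases downstream 35.4% and 32.9%, and at 1000 bases downstream 16.9% and 17.4%. At 1000 bases upstream they were 13.04% and 13.7%. At 1000 bases the shares were therefore slightly higher in sh-ANP32B, and nearer the start they were lower. In all, 1411 of the starts under an NC peak were not under a sh-ANP32B peak (17.1%, 95% interval 16.3% to 17.9%), while 188 of the starts under a sh-ANP32B peak were not under an NC peak (2.67%).

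The difference at the start was larger at promoters of higher GC content, taken over the 1000 bases around the start. Starts were ranked by this GC content and cut into 5 classes of about equal size, called quintiles. In the GC-richest quintile of starts, those above 69.0% GC, 2164 of 4062 starts (53.3%) lay under an NC peak and 1423 (35.03%) under a sh-ANP32B peak, a difference of -18.2 percentage points. In this quintile 55.6% of positions 100 bases downstream lay under an NC peak, and the sh-ANP32B profile dipped to 33.9% at 100 bases upstream, between shoulders of 37.5% at 400 bases upstream and 42.4% at 600 bases downstream. At 1000 bases to either side the lists again held nearly equal shares, 22.6% and 22.4% upstream and 31.4% and 31.1% downstream. In the middle quintile the share at the start was 49.7% in NC and 46.1% in sh-ANP32B, and in the GC-poorest quintile 8.52% and 8.98%. Of starts under an NC peak, the share uncovered in sh-ANP32B was 4.75%, 5.16%, 9.63%, 17.4% and 34.4% from the GC-poorest to the GC-richest quintile. GC content thus moved with the result, and its part in the result was not tested.

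**Figure D2:**
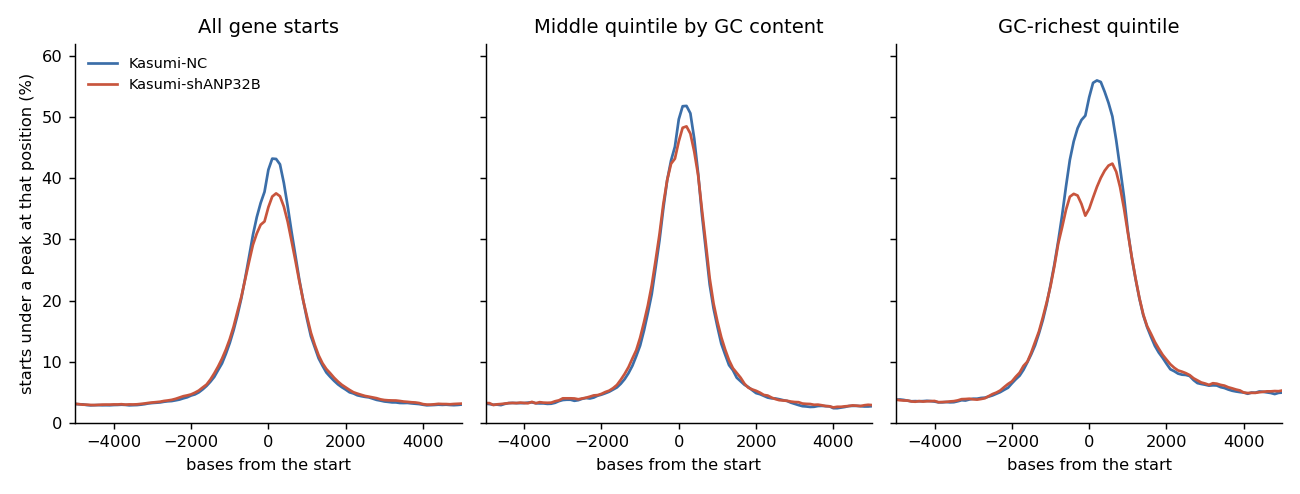
Share of gene starts (vertical axis, percent) that lay under a peak at each distance from the start (horizontal axis, bases, negative is upstream) in NC and sh-ANP32B, for all 19970 starts, for the middle quintile and for the GC-richest quintile of starts. The curves overlap away from the start, and in the GC-richest quintile NC is at 53.3% and sh-ANP32B at 35.03% at the start.

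Most of these promoters kept some of the mark. Of the 1411 uncovered starts, 1066 still had a sh-ANP32B peak in the window of 2500 bases to each side and 345 had none. The remaining peak lay only downstream of the start in 560 cases, only upstream in 259, and on both sides in 247, of which 180 were in the GC-richest quintile. E2F1, a transcription factor gene of the cell cycle on chromosome 20, shows the last kind. Its single NC peak ran from 33684561 to 33687680, and sh-ANP32B had peaks at 33684750 to 33685868 and at 33686591 to 33687725, with the start at 33686385 in the gap. The same held for ADAM8, a membrane protease gene with 4831 bases in NC and 4371 in sh-ANP32B, for GRK6, a receptor kinase gene with 3605 and 3200, and for DUSP7, a phosphatase gene with 3876 and 2868. These 3 genes were chosen after their values were seen, among the 10 such genes with the widest NC peak. In the MV4-labelled pair 23.8% of starts lay under an NC peak and 16.5% under a sh-ANP32B peak. Of starts under the MV4 NC peaks, 27.2% were uncovered in the GC-poorest quintile and 42.6% in the GC-richest, a smaller spread over GC content than in the Kasumi-labelled pair. This difference was not tested.

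Peaks broken in 2 or more pieces count in part the same promoters again, those uncovered with a peak on both sides. There were 639 NC peaks that overlapped at least 2 sh-ANP32B peaks, 386 of them at promoters, and they held 652 gaps with a median length of 446 bases. A gene start lay in 204 of these gaps (31.3%, 27.8% to 34.9%), and the median GC content was 67.5% in the gaps and 59.5% in the rest of the same peaks. In the reverse direction 623 sh-ANP32B peaks overlapped at least 2 NC peaks, 180 of them at promoters, with 655 gaps of a median of 441 bases. Only 5 of those gaps held a gene start (0.763%), and their median GC content was 45.8%, against 53.3% in the rest of the peak. Since fewer of the joined peaks were at promoters, the shares of gaps with a start are not directly comparable. GC content was higher in the gap than in the rest of the peak in 382 of the 652 gaps in sh-ANP32B (58.6%) and in 57 of the 655 gaps in NC (8.70%).

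The outer edges of promoter peaks can be compared only where both lists cover the start, which leaves out the lost, split and uncovered promoters. Over 6500 starts covered by a matched pair of peaks, 1 from each list, the upstream edge lay a median of 8 bases farther from the start in sh-ANP32B and the downstream edge 6 bases farther. Over all 18816 pairs matched 1 to 1, the median width difference, sh-ANP32B minus NC, was 25 bases. It was 10 bases at promoters, 37 in introns and 33 between genes. In the background of all pairs 5.74% were at least 1.5-fold narrower in sh-ANP32B and 5.84% at least 1.5-fold wider. Promoter pairs were 1.5-fold narrower in 8.22% and wider in 3.14%, and intron pairs narrower in 4.19% and wider in 8.18%. In the GC-richest quintile of pairs 14.6% were narrower and 2.37% wider, with a median difference of -27 bases, while in the other quintiles the median difference was 27 to 44 bases. Outside promoters the GC-richest quintile had a median difference of -57 bases over 628 pairs, so the narrowing of GC-rich peaks was not limited to promoters.

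Presence and absence of whole peaks also differed with base composition. A peak is lost when it is in NC and overlaps no sh-ANP32B peak by at least 1 base, and gained in the reverse case. There were 2039 lost peaks (8.97% of NC peaks) and 3151 gained peaks (13.2% of sh-ANP32B peaks). At promoters 8.14% of NC peaks were lost and 4.64% of sh-ANP32B peaks were gained. In introns 9.69% were lost and 20.3% gained, in exons 13.7% and 20.8%, and between genes 9.002% and 16.2%. Lost peaks were therefore more frequent than gained ones only at promoters. Peaks were also cut into quintiles by their own GC content. Above 61.8% GC, the richest class, lost peaks made up 14.2% (13.3% to 15.1%) and gained peaks 2.43% (1.997% to 2.96%), and in the GC-poorest class 7.44% and 21.2%. In the classes between, from poorer to richer, 8.45%, 7.25% and 6.39% were lost and 19.0%, 14.3% and 6.57% gained. The lost share was thus higher only in the richest class, while the gained share fell steadily with GC content. Outside promoters alone, the GC-richest class had 22.3% lost and 7.41% gained. Lost and gained peaks were narrow, with median widths of 456 and 439 bases against 1142 for kept NC peaks. Among peaks under 500 bases, 29.4% of NC peaks were lost and 45.9% of sh-ANP32B peaks gained. Among peaks of 4000 bases or more, 0 of 1015 NC peaks were lost and 0 of 1081 sh-ANP32B peaks gained, which allows a share of up to 0.377% and 0.354% (upper Wilson bounds).

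**Figure D3:**
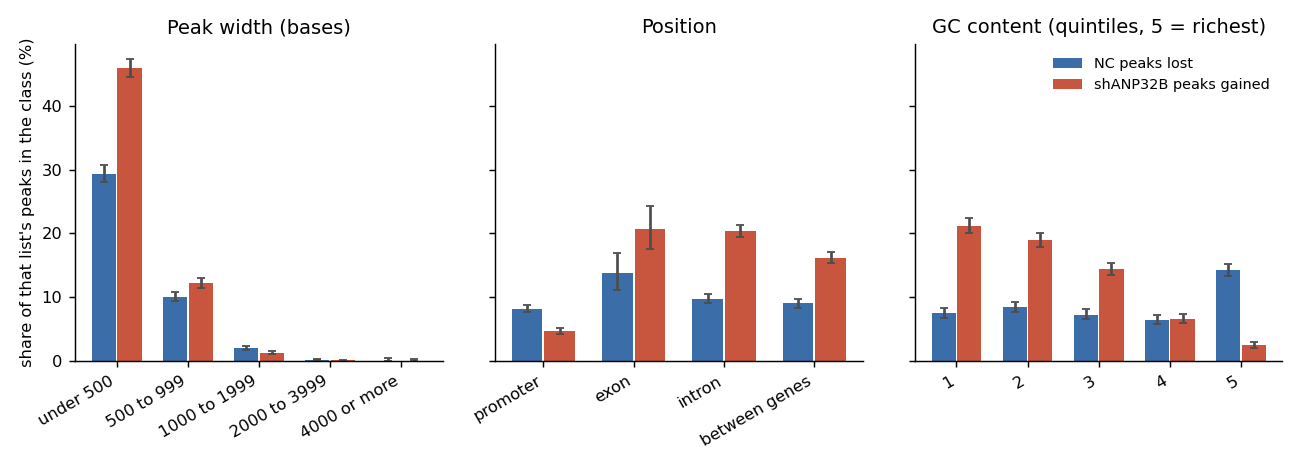
Share (vertical axis, percent) of NC peaks lost and of sh-ANP32B peaks gained by peak width, position and quintile of GC content; bars are shares and lines their 95% Wilson intervals. Gained peaks exceed lost ones in introns (20.3% and 9.69%), and lost peaks exceed gained ones in the GC-richest quintile (14.2% and 2.43%).

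Gained peaks lay farther from gene starts. Their median distance to the nearest start was 21739 bases, against 9222 for lost peaks and 8648 for kept NC peaks, and 47.9% of them had their centre in an intron. The centre was CpG-rich in 6.63% of gained, 33.5% of lost and 33.6% of kept NC peaks, where CpG-rich means at least 50% GC and a ratio of observed to expected CG dinucleotides of at least 0.6 over 300 bases. Gained peaks were within 1000 bases of an NC peak in 31.3% of cases, and lost peaks within 1000 bases of a sh-ANP32B peak in 21.7%. The MV4-labelled NC list, which had no part in defining the classes, overlapped 71.1% of kept NC peaks, 25.6% of lost peaks (23.7% to 27.5%) and 27.1% of gained peaks (25.6% to 28.7%). Lost and gained peaks thus met an MV4 peak about equally often.

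Over genes, promoter peaks were lost more often than gained. Of 9541 genes with a promoter peak in NC, 648 had none in sh-ANP32B (6.79%), and of 10429 genes without one in NC, 168 had one in sh-ANP32B (1.61%). Of 8893 genes with a peak in both, 768 had at least 1.5-fold fewer bases in sh-ANP32B (8.64%) and 305 at least 1.5-fold more (3.43%), and the median log2 ratio of bases was 0.00. From the GC-poorest to the GC-richest quintile of starts, the share with 1.5-fold fewer bases went from 2.80% to 18.3% and the share with 1.5-fold more from 8.60% to 0.862%. The 648 genes rested on 610 distinct peaks, since neighbouring genes share a window, and the median GC content of these peaks was 69.8%. In 10 of the 648 the NC peak overlapped a sh-ANP32B peak that lay outside the window. The MV4-labelled NC list had a promoter peak at 25% of the lost genes, 35.7% of the gained genes and 75.5% of the genes with a peak in both.

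**Figure D4:**
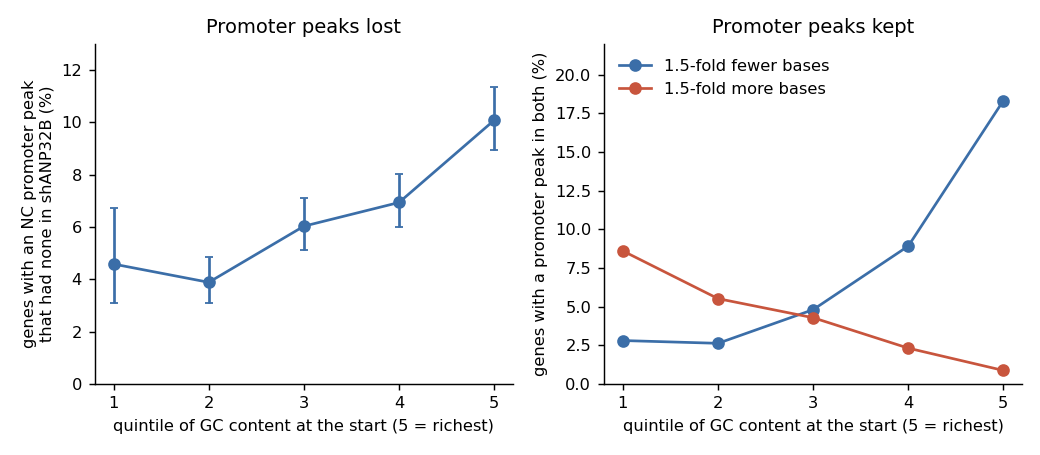
Left, share of genes with an NC promoter peak that had none in sh-ANP32B (vertical axis, percent, 95% Wilson intervals), and right, share of genes with a peak in both that had at least 1.5-fold fewer or more bases, by quintile of GC content at the start (horizontal axis). Fewer bases go from 2.80% to 18.3% of genes and more bases from 8.60% to 0.862%.

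The lost genes with most bases in NC had broad peaks over GC-rich starts. PHF13, a reader of methylated histone H3, had 2386 bases in NC and 0 in sh-ANP32B, PCGF3, a Polycomb subunit gene, 2221 and 0, and AGRN, which encodes the matrix protein agrin, 2142 and 0. BCL7A, a subunit gene of SWI/SNF remodelling complexes, had 2069 and 0 bases. CCDC92 and ZNF664 share a window with 1995 and 0. SELENOO had 1994 and 0 bases, the corepressor gene LCOR 1914 and 0, the synaptogyrin gene SYNGR2 1901 and 0, and DNMT3A, a DNA methyltransferase often mutated in AML, 1796 and 0. The GC content around these starts was 73.3% to 82.8%. DNMT3A, PHF13, AGRN, BCL7A, CCDC92, ZNF664 and SYNGR2 had no promoter peak in either MV4-labelled library, while PCGF3 had 3104 and 2992 bases there.

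The gained genes had narrower peaks. GPR146, an orphan receptor gene, had 0 bases in NC and 1264 in sh-ANP32B, UMAD1 0 and 1218, PPOX, an enzyme gene of heme synthesis, 0 and 1043, and METTL7B 0 and 1035. CEP89 and FAAP24 share a window with 0 and 1016 bases, and LY9, a lymphocyte surface receptor gene, also had 0 and 1016. ALKBH2, a DNA repair gene, had 0 and 958 bases, SSBP1, which encodes a mitochondrial DNA-binding protein, 0 and 863, and SMIM6 0 and 857. GC content around these starts was 48.8% to 65.5%.

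The widest promoter peaks had nearly the same full width in both lists. The peak over ANKRD13D and GRK2 on chromosome 11 was 26984 bases wide in NC and 26497 in sh-ANP32B, that over SH3BP2 16367 and 16422, and that over IZUMO4 and MOB3A 16010 and 15413. MMP25 had peaks of 15974 and 15797 bases, MEF2D of 15830 and 15854, ZBTB7B of 13938 and 13819, PTPN6 of 13748 and 13738 and HTRA3 of 13711 and 13710. None of these widths differed by 1.5-fold. In the promoter window IZUMO4 had 2779 bases in NC and 2194 in sh-ANP32B, and its start was uncovered in sh-ANP32B. HTRA3 had 1455 and 2182 bases in the window, just under 1.5-fold more.

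Histone acetyltransferase and deacetylase genes had the lowest median ratio of the 17 gene lists, and their starts also had the highest median GC content of these lists, 66.1%. Of 28 genes, 24 had a promoter peak in NC. Of these, 1 was lost, 5 of the 23 with a peak in both had 1.5-fold fewer bases (against 8.64% of all such genes) and 0 had 1.5-fold more. The median log2 ratio was -0.10, against 0.00 over all genes. In the list 17 genes were below 0 and 6 above, against 4195 and 4582 over all genes. CREBBP, an acetyltransferase that writes H3K27ac, had 2115 bases in NC and 579 in sh-ANP32B. Its NC peak, from 3879575 to 3881689 on chromosome 16, covered the start at 3880713, and the sh-ANP32B peak, from 3879469 to 3880047, lay inside the gene. The deacetylase gene HDAC1 had 2990 and 1691 bases, but in a window of 1000 bases to each side its log2 ratio was -0.41, under 1.5-fold. SIRT1 had 1049 and 568, SIRT3 1570 and 974, and the acetyltransferase gene KAT6A 2275 and 1445. SIRT2 had 398 and 0. EP300, the paralog of CREBBP, had 2095 and 2089 bases, HDAC2 1953 and 1980, and HDAC3 2222 and 2218. Of 23 starts of the list under an NC peak, 6 were uncovered in sh-ANP32B (CREBBP, KAT6B, HDAC10, SIRT1, SIRT3 and SIRT6). Over all such starts the share was 17.1%, and in the GC-richest quintile 34.4%. In GC quintile 4, counted from the GC-poorest, which holds the list's median GC content, it was 17.4%. There 8.92% of genes with a peak in both had 1.5-fold fewer bases.

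**Figure D5:**
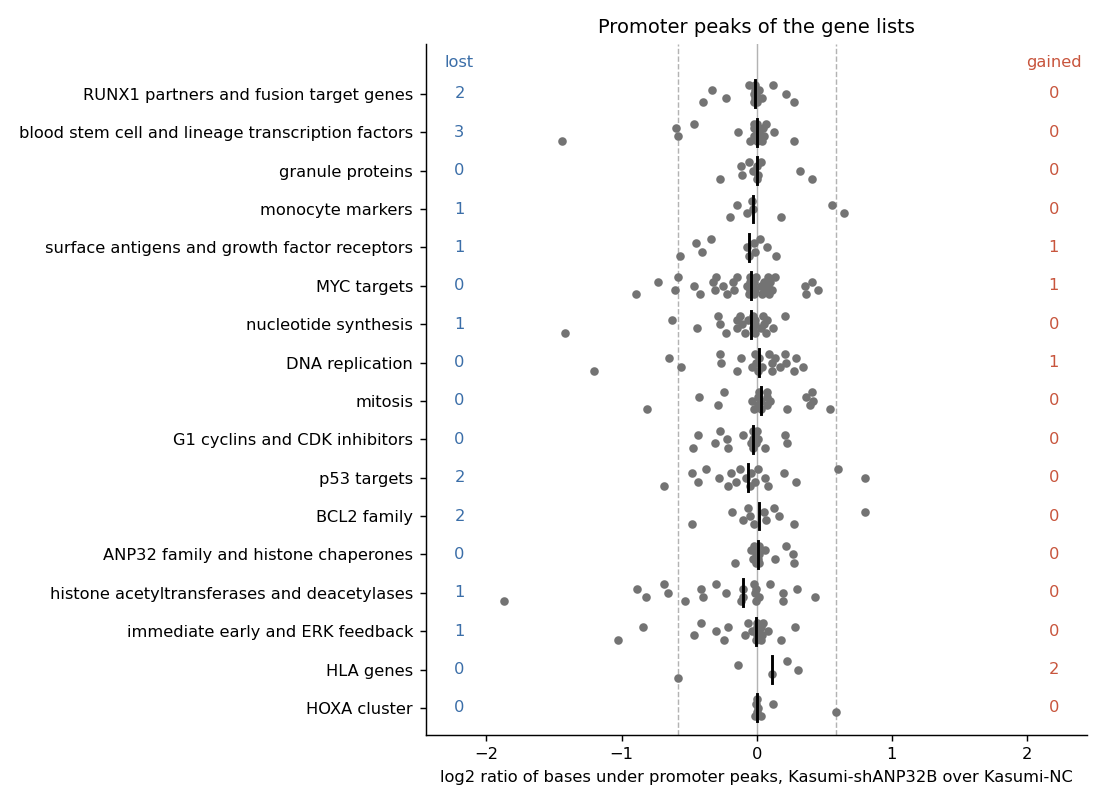
Log2 ratio of bases under promoter peaks, sh-ANP32B over NC (horizontal axis), 1 point per gene with a peak in both, for 17 gene lists; black lines are medians, dashed lines mark 1.5-fold, and the numbers at the sides count lost and gained genes. Most points lie between the dashed lines, and the lowest is CREBBP at -1.87.

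In the gene lists that follow, calls are to be read against all genes, of which 6.79% with an NC peak were lost, 1.61% without one gained a peak, 8.64% with a peak in both had 1.5-fold fewer bases and 3.43% had 1.5-fold more. Lists of this size hold only a few genes at these shares, so a count of 0 to 3 calls says little about a list, and the single genes are given for their values. Many lost or gained genes rest on a peak under 500 bases, near the caller's smallest width. Of such peaks 29.4% were lost and 45.9% gained over the whole lists, so these single calls say little. Signs of log2 ratios are likewise to be read against all 8893 genes with a peak in both, 4195 below 0 and 4582 above. Of 42 MYC targets, 38 had a promoter peak in both, 24 were below 0 and 14 above, with a median log2 ratio of -0.04. In that list the ribosome assembly genes PPAN (1275 and 688 bases), TCOF1 (1008 and 607) and BYSL (1336 and 877) had 1.5-fold fewer bases, and RRP12 was gained with 402. Of 27 nucleotide synthesis genes, 24 had a peak in both. TK1, thymidine kinase, had 1112 bases in NC and 417 in sh-ANP32B, ADSS2, of AMP synthesis, 1470 and 950, and PRPS2, which makes the ribose donor, 836 and 0. CTPS1, CTP synthase, had 1931 and 1748. Of 27 DNA replication genes, 10 were below 0 and 13 above. The catalytic subunit gene of DNA polymerase epsilon, POLE, had 2219 bases in NC and 963 in sh-ANP32B, GINS1, of the replicative helicase, 748 and 476, and the clamp loader gene RFC5 was gained with 381.

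Of 22 mitosis genes, 15 were above 0 and 6 below. Their median log2 ratio was 0.03 at a median GC content of 57.5% at the start. Over all genes of GC quintile 2, counted from the GC-poorest, it was 0.04. The only call was at CDC25B, a phosphatase that activates CDK1, with 1119 bases in NC and 639 in sh-ANP32B. Of 20 genes of G1 cyclins, kinases and inhibitors, 18 had a peak in both and 0 were called. Of 16 starts of this list under an NC peak, 5 were uncovered, against 17.1% over all genes, at CCNE1, CDK6, E2F1, CDKN1A and CDKN2D. CCNE1, cyclin E1, had 1628 and 1207 bases, CDK6 2834 and 2351, and CDKN1A, the inhibitor p21, 2533 and 2183. MYC itself had 3828 bases in NC and 3843 in sh-ANP32B. Of the other genes the study followed, the helicase subunit gene MCM6 had 1380 and 1671 bases, CCNB1, cyclin B1, 1456 and 1950, CDK2 754 and 789, and the mitotic kinase gene PLK1 2400 and 2528. RANBP1 and TRMT2A share a window with 2117 and 2094 bases, and ANP32A, another ANP32 family gene, had 3306 and 3345. None of these differed by 1.5-fold, but BCL2, which the study also followed, lost its promoter peak, with 993 bases in NC and 0 in sh-ANP32B. The study reported less mRNA and protein of MYC, CCNB1, CDK2, BCL2 and PLK1 after knockdown. It also reported less H3K27ac signal at MYC, CTPS1, MCM6, RANBP1 and TRMT2A. Peak extent, without height, is a different measure from each of these.

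Genes of stress and survival differed in both directions. Of 25 p53 targets, TIGAR (385 bases in NC) and ZMAT3 (403) were lost, SESN2, a stress sensor, had 1516 and 941 bases, and FDXR, a mitochondrial reductase gene, had 483 and 732. The FDXR peaks of NC and sh-ANP32B shared no base, so a narrow peak was lost and another gained. BBC3, the cell death activator PUMA, had 837 bases in NC and 1460 in sh-ANP32B, but the widest peak reaching its window differed by a log2 ratio of only 0.18. Of the 15 BCL2 family genes, BCL2, an inhibitor of cell death named above, and BIK, an activator (693), were lost. Of 24 immediate early and ERK feedback genes, ATF3 was lost from 754 bases, and IER3 (1141 and 559) and SPRY1 (869 and 485) had 1.5-fold fewer.

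Among 36 transcription factor genes of blood stem cells and lineages, 3 of 24 were lost, against 6.79% of all genes, and 2 of 21 had 1.5-fold fewer bases, against 8.64%. The monocyte and granulocyte factor CEBPB had 3635 bases in NC and 2409 in sh-ANP32B, KLF4 1801 and 663, KLF2 883 and 0, IRF8 357 and 0 and MEF2C 482 and 0. The IRF8 peak had the smallest width of any NC peak, and the KLF2 bases came from narrow peaks of 432 and 451 bases. Of 22 RUNX1 partners and fusion target genes, ID1 (472 bases) and JUP, which encodes plakoglobin (1253), were lost, and RUNX1 had 2689 and 3263. Its log2 ratio was 0.28 by these bases, 1.147 by the widest peak (1478 and 3272 bases) and 0 in a window of 1000 bases, so its value depended on the measure. Of 22 surface antigen and growth factor receptor genes, IL1RAP, an interleukin receptor subunit gene, went from 1343 bases to 0, and CD99, an adhesion antigen gene, was gained with 370. Of 18 monocyte markers, FCN1 was lost from 444 bases and FCGR1A, an Fc receptor gene, had 1029 and 1611. Of 16 granule protein genes, 11 had a peak in both, with log2 ratios from -0.27 to 0.41. The 11 HOXA genes had 8 peaks in both libraries, and HOXA6 had 1281 and 1930 bases. Of 17 genes of the ANP32 family and histone chaperones, 16 had a peak in both, with log2 ratios from -0.16 to 0.28. Of 20 HLA and antigen presentation genes, 5 had a peak in both, and TAP2 and HLA-DRB1 were gained with 363 and 370 bases. This region has alternate sequences in hg38, which held 328 NC and 358 sh-ANP32B peaks, so a value of 0 there does not show that the mark was absent.

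Outside genes' promoters, the widest lost peak more than 10000 bases from any sh-ANP32B peak, away from the chromosome end, was in intron 3 of IPO5, an importin gene (chromosome 13, 97975691 to 97977312, 72.4% GC). The nearest sh-ANP32B peak was 499040 bases away. The widest gained peak was in intron 7 of AK5, an adenylate kinase gene (chromosome 1, 77412214 to 77414373, 46.9% GC), 190822 bases from any NC peak. Both regions were under a peak in both MV4-labelled lists. In RUNX1, a lost peak of 1651 bases in intron 6 (chromosome 21, 34841481 to 34843131) was only 284 bases from a sh-ANP32B peak, and a gained peak of 2062 bases in intron 3 of ENO1, the enolase gene, was 681 bases from an NC peak. With the nearest of 19970 starts as the link, 5 genes had at least 3 lost and 0 gained peaks (FCGR2A, HES1, CDK3, LYST and WDR88). In the other direction 73 had at least 3 gained and 0 lost, led by MYO9B with 7. ID2, NFATC2, RGMA, STK10 and UQCRFS1 had 5 each. Gained peaks were more numerous in all, 3151 against 2039 lost, so these counts are not directly comparable. A lost peak nearest to FCGR2A was 42585 bases from its start, in the domain of transfer RNA genes described below.

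Stitched domains join peaks at most 12.5 kb apart after the bases of promoter windows are taken out, and their size is the bases under peaks. Of the 500 largest NC domains, 469 were among the 500 largest of sh-ANP32B (93.8%), with 155 smaller and 345 larger in sh-ANP32B and a median log2 ratio of 0.06. The domain with CEBPA, the granulocyte factor gene, ranked 2 in both, with 40566 and 39589 bases. The domains with most added bases in sh-ANP32B were at MYO9B, a myosin gene (9666 to 14682 bases), MYH9 (24587 to 29278), CHSY1 (15717 to 20198), CCDC88C (23518 to 27776) and STK10 (7817 to 12009). The domain with PLEC had 27853 and 24612 bases, that near MIDN 6731 and 4073 and that in TTYH3 13361 and 11067.

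The 2 domains with the largest deficit of bases in sh-ANP32B were at arrays of small RNA genes on chromosome 1. The domain from 228619584 to 228648415, near RHOU, overlaps 12 genes of 5S ribosomal RNA in RefSeq (GRCh38.p14), and had 7 peaks with 7315 bases in NC and 1 peak with 1831 bases in sh-ANP32B. The peaks lay mostly beside the 5S genes, of which 1 was under an NC peak and 0 under a sh-ANP32B peak. The domain from 161439867 to 161470477, nearest to FCGR2A, overlaps 22 transfer RNA genes, and had 5 peaks with 5955 bases in NC and 1 peak with 1005 in sh-ANP32B. The MV4-labelled lists had 5 peaks (NC) and 1 peak (sh-ANP32B) in the transfer RNA domain, and 3 peaks each in the 5S domain. In the transfer RNA domain of the Kasumi-labelled lists, 11 of the 22 genes were under a peak in NC and 2 in sh-ANP32B. Over all 443 transfer RNA genes, an NC peak covered 102 and a sh-ANP32B peak 98. The 17 lost genes included 9 in this domain, and 13 were gained. Copies in these arrays are near-identical, so the position of reads among them is uncertain.

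Along the genome the covered length was higher in sh-ANP32B in most but not all bins. Of 210 bins of 5 Mb with at least 40 NC peaks, 165 had a ratio of covered length above 1 and 45 below, from 0.902 to 1.21 with a median of 1.04. By chromosome, the ratio of peak numbers was from 1.02 on chromosome 19 to 1.10 on chromosome 13.

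Motif letters were counted in the central 300 bases of peaks, on both strands. GGGCGG, the GC box of SP and KLF factors, was in 56.9% of kept, 66.4% of lost (63.0% to 69.8%) and 24.9% of gained (21.03% to 29.3%) promoter peaks, and in 45.0% of 35116 RefSeq promoters of 300 bases. The median GC content of these windows was 65.3%, 70.7% and 53.7%. CCGGAAGT, an ETS motif, was in 3.99% of kept, 1.35% of lost (0.737% to 2.47%) and 2.16% of gained (1.14% to 4.05%) promoter peaks, and in 4.14% of RefSeq promoters. TGTGGT, the RUNX motif, was in 23.7% of kept, 23.4% of lost (21.2% to 25.8%) and 25.9% of gained (24.3% to 27.6%) peaks outside promoters, so lost and gained peaks overlapped in their intervals. For TTGCNNAA (C/EBP) the shares outside promoters were 10.9%, 9.77% and 8.85%, and for TGANTCA (AP-1) 10.003%, 9.46% and 9.03%. A match is a run of letters and not a bound site.

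The genes with the lowest ratio among those with at least 1000 bases in NC, and the highest among those with at least 1000 in sh-ANP32B, were picked after their values were seen. TRIO had 2475 bases in NC and 405 in sh-ANP32B, CUX1, a homeobox gene, 2093 and 486, and NR4A3, a nuclear receptor gene, 1519 and 356. At GCLC, of glutathione synthesis, the window went from 1406 to 189 bases. Its NC peak of 1219 bases over the start was lost. A separate NC peak of 1204 bases, largely outside the window, matched a sh-ANP32B peak of 1293 bases. In the other direction SYS1, of the Golgi, had 477 and 1779 bases, POMT1, a mannosyltransferase gene, 543 and 1694, and SECTM1 436 and 1230. The GC content around the start was 62.3% to 78.4% in the 10 lowest genes and 50.7% to 70.7% in the 10 highest.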

How the data were processed

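H3K27ac CUT&Tag peak lists of 4 libraries were used, of which 2 were compared. Per the file headers the deposited lists give each peak's position, its length in bases and a name, with no height or q-value, and the submitters' processing notes name Bowtie2 2.4.4, MACS3 3.0 and hg38. The study's methods name other versions of Bowtie2 and MACS, with Picard and samtools, so the versions used are uncertain. The authors merged replicates before peak calling. Whether IgG served as the control of the caller was not given in the sources used here. No read number was used here, so depth is unknown and sets an unknown limit on narrow peaks.

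Peaks on chromosomes 1 to 22 and X were compared with python 3.11.15, numpy 2.4.6 and pandas 2.3.3, and sequence was read from hg38 with samtools 1.23.1 and pysam 0.24.0. A peak was lost or gained when it shared no base with the other list. Promoters were 2500 bases to each side of the canonical start of 19970 protein-coding genes of GENCODE release 44. A gene was counted as having fewer or more bases at a ratio of 1.5-fold. Intervals are 95% Wilson intervals for shares and a Poisson interval for the ratio of peak numbers. Scripts were tested on simulated data. Named genes were ANP32B and genes the study followed, the lost and gained members of each of 17 gene lists with up to 4 members of largest absolute log2 ratio, the 10 lost and 10 gained genes with most bases, the 10 with the widest promoter peaks, and, at most 5 in each direction, the widest lost and gained peaks outside promoters, the domains with the largest differences and the genes nearest to several lost or gained peaks. Other genes, such as HDAC2, HDAC3, EP300, KAT6A and those with an uncovered start, were chosen after their values were seen. The members, lists and tests were chosen with earlier results of these data known. The alternatives were other overlap, width, window, joining and fold settings. The lists of markers of other lineages are not reported here.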

Additional observations from a re-analysis of the deposited data

Results flagged for a closer look

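The pair labelled Kasumi and the pair labelled MV4 differed in opposite directions in peak number, covered length and width of matched peaks. This was not tested, since each pair had 1 library a side. The share of gene starts under a peak was lower in sh-ANP32B in both pairs, 41.4% and 35.3% in the Kasumi-labelled and 23.8% and 16.5% in the MV4-labelled one. The ratio of peak numbers, sh-ANP32B over NC, was 1.05 in the Kasumi-labelled pair and 0.903 in the MV4-labelled pair. The ratio of covered length was 1.03 and 0.825. Over matched peaks, the log2 ratio of widths had a median of 0.028 and -0.13.

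Peaks outside chromosomes 1 to 22 and X entered no comparison. There were 971 of them in the NC list and 1028 in the sh-ANP32B list.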

How the results depend on the processing

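No paired analysis was possible because each group had 1 library, and no replicate could be left out. Of 44 alternative values for the main comparisons, 29 kept their direction within the limit set, 14 moved and 1 reversed. The value that reversed was the ratio of peak numbers, 0.992 with only peaks of at least 1000 bases. It was 1.01 with peaks at most 1000 bases apart joined. Lost peaks numbered 4205 and gained peaks 5314 when overlap had to reach 50% of both peaks, and 147 and 88 among peaks of at least 1000 bases. The promoter share differed by -3.61 percentage points over the 10000 widest peaks. At 2-fold, 296 genes had fewer bases and 61 more, and 199 had 1.5-fold more in a window of 1000 bases. The alternatives for gene starts were chosen after seeing the data. The share of starts under a peak differed by -5.09 points with peaks joined, -4.17 with peaks of at least 1000 bases and -0.94 at starts of lncRNA genes, and in the GC-richest quintile by -14.5 with peaks joined. Outside promoters, gained minus lost peaks differed in GC content by -2.17 points. Among single genes, which are outside the 44, GCLC reversed to a log2 ratio of 0.085 by its widest peak, a different peak in each list. The 2-fold and minimum-width settings count fewer features by construction, and for the others the cause was not tested. Depth was unknown.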
